A study of Danio rerio with 5 samples.

Results

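The 10 genes described here are embryonic globin genes and genes of enzymes that make heme, in zebrafish embryos injected with morpholinos against gata5 and gata6, which encode GATA factors of the heart and gut. They were chosen by symbol. The globins are the alpha genes hbae1.1, hbae3 and hbae5 and the beta genes hbbe1.1, hbbe2 and hbbe3, and the enzymes are alas2, urod, cpox and fech. Of these 10 genes, 8 had a probe that could be named through its RefSeq accession, among 13143 genes named on the array. These 8 genes had 16 probes, and 13 of the probes passed the filter on dim signal. The genes hbae5 and hbbe1.1 are not analysed here, because no probe carried an accession matched to them.

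Whole embryos of Danio rerio were collected at 14 h post fertilization (hpf), and total RNA was hybridised to 1-colour Agilent arrays. The gata5/6 morpholino (gata5/6 MO) group has 2 arrays of embryos injected at the 1-cell stage with 6.25 ng of gata5 MO and 1.25 ng of gata6 MO in 1 nl. The control morpholino (control MO) group has 3 arrays of embryos injected at the same stage with 7.5 ng of control MO in 1 nl. Morpholinos are short synthetic strands that bind a matching RNA and keep it from being translated or spliced, so both groups carry an injected oligonucleotide and neither carries a mutation. The labels give no strain and no number of embryos per sample, and state that the pair of morpholinos was chosen to reduce gata4 too, as others had reported.

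In zebrafish the first red blood cells form from lateral mesoderm, under the control of gata1a and tal1. These primitive erythroid cells load themselves with hemoglobin, a tetramer of alpha and beta globin chains, each of which holds a heme. Alpha and beta genes lie next to each other at a major and a minor locus, and the embryonic genes are used before the adult ones. Heme is built from glycine and succinyl-CoA by a chain of enzymes that begins and ends in the mitochondrion. The first erythroid step is catalysed by Alas2 and the last, the insertion of iron into protoporphyrin, by ferrochelatase (Fech). Zebrafish mutants of alas2, urod and fech are known for their anaemia or for red cells that fluoresce with trapped porphyrin.

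A signal is given below as the processed intensity of a probe divided by the 75th percentile of its array, and a change is the difference of mean log2 signals, gata5/6 MO minus control MO. A gene passed the test at a Benjamini-Hochberg adjusted p under 0.05 in a limma fit of all 10791 genes tested, with each gene taken at its brightest probe. Between 70.1% and 71.1% of the probes of an array were well above background, and 0 spots were saturated. The gata5/6 MO arrays lay on slide 2 and the control MO arrays on slide 1, so slide and group cannot be told apart. Over all kept probes the median SD of the log2 signal was 0.186 between the gata5/6 MO arrays, against 0.0762 between the control MO arrays. Nothing in the labels ties replicates to separate clutches, and p-values therefore describe only how far these samples spread, which may be technical. Precision is limited throughout by how few arrays there are. The gene gata4, against which no morpholino was injected, fell (log2 change -0.64, SE 0.0812, limma adjusted p = 0.00519). The targeted genes gata5 (1.98) and gata6 (2.85) had higher RNA signals, which do not check a block of translation. Because RNA came from whole embryos, fewer or more cells of a type cannot be told apart from less or more RNA per cell.

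The signal of the 4 measured embryonic globin members was not lost in the gata5/6 MO embryos, and 2 of these 4 rose. These were hbae1.1, which was 1.53-fold higher, and hbbe2, which was 1.84-fold higher on a dim probe. Neither passed without control MO replicate 2 or 3, and hbae1.1 also did not pass without control MO replicate 1. Neither passed with a variance fitted for each group. With normexp background correction as planned neither passed, and the hbbe2 log2 change turned to -0.12 and -0.13 in its 2 forms. The beta gene hbbe3 was also higher on both gata5/6 MO arrays and the alpha gene hbae3 was lower on both, and neither passed. None of the 4 heme enzyme members passed. Over the 8 measured members, 2 rose, 0 fell and 6 did not pass, whereas 15.0% of all genes tested passed, 7.84% as rises and 7.17% as falls. Their median log2 change was 0.29, against 0.04 over all genes. With 8 members, 2 that rose is a small number to set against that background. Without adjustment 5 of the 8 had a p under 0.05 (limma), as did 31.8% of all genes tested.

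**Figure D1:**
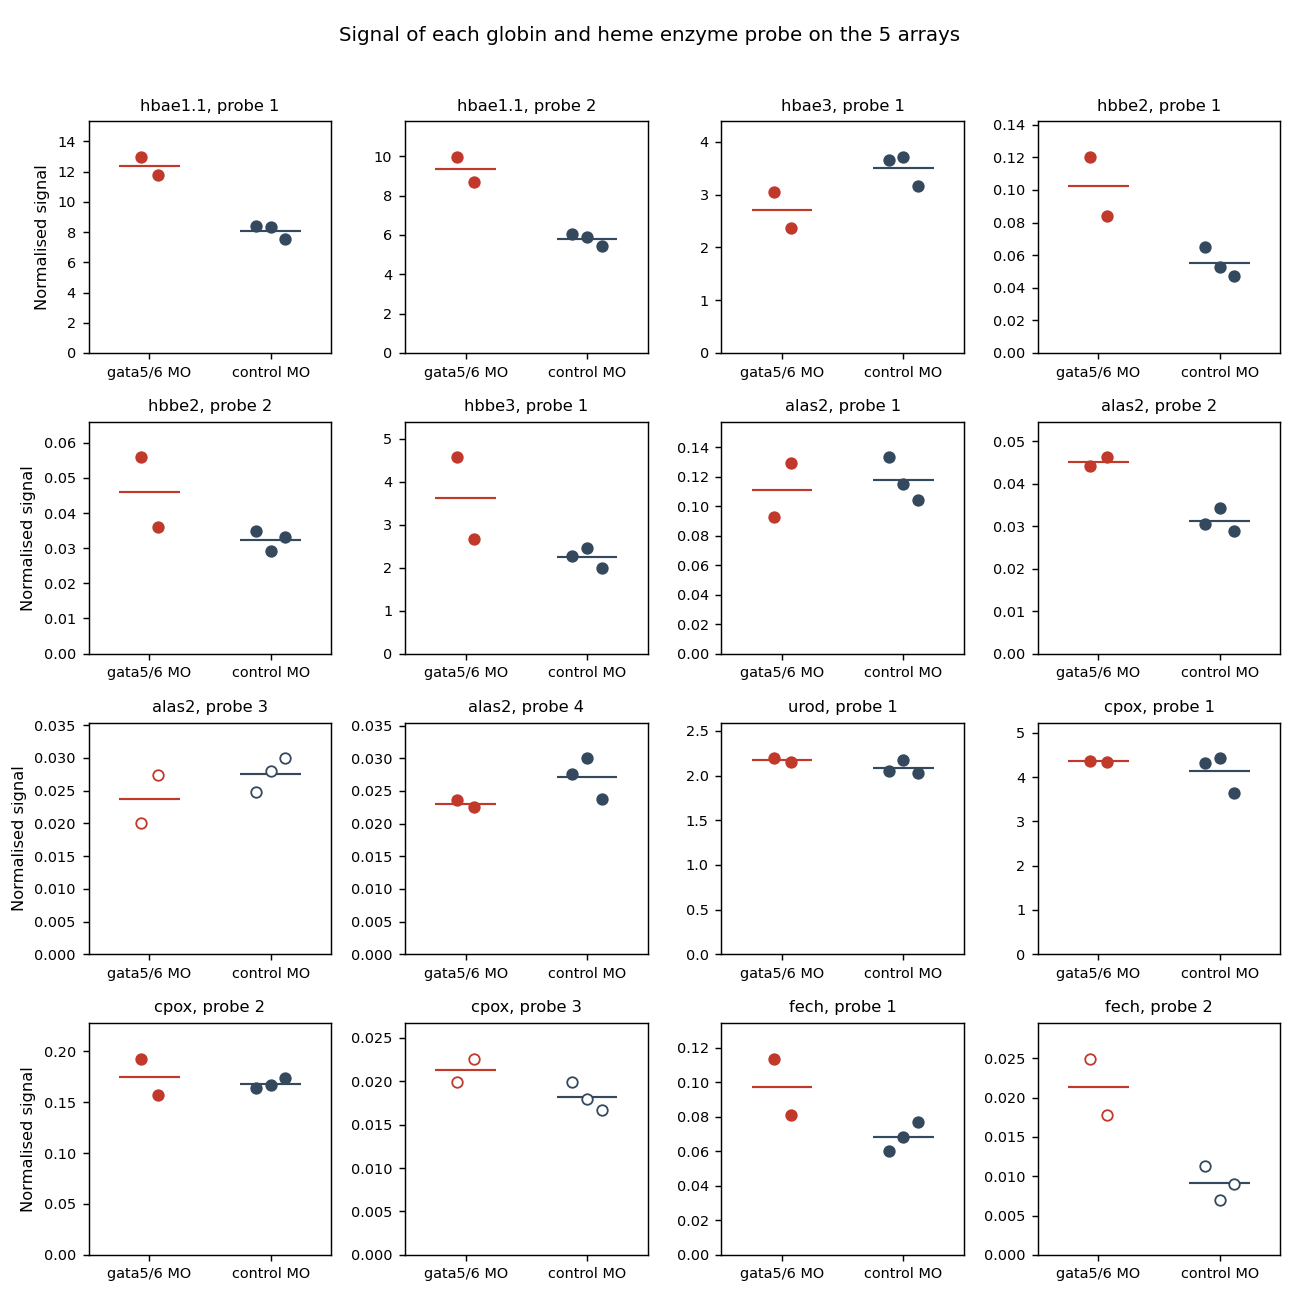
Normalised signal (processed intensity over the array's 75th percentile, linear axis from 0) of the 16 probes of the 8 measured genes, with the 2 gata5/6 MO arrays on the left and the 3 control MO arrays on the right of each panel. Points are arrays, horizontal bars are group means, and open points mark the 3 probes that did not pass the filter on dim signal. Both hbae1.1 probes, the first hbbe2 probe and the second alas2 probe sit higher on the gata5/6 MO arrays and passed over all probes. The hbae3 probe sits lower and did not pass, and some other probes also had groups that did not overlap without passing.

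The alpha globin gene hbae1.1 encodes an embryonic alpha chain of the major locus, and both of its probes rose. Its first probe gave signals of 13.0 and 11.8 on the gata5/6 MO arrays, against 8.37, 8.32 and 7.57 on the control MO arrays. Both gata5/6 MO arrays were above all control MO arrays. The mean log2 signal was 3.63 ± 0.10 (SD, n = 2) in gata5/6 MO embryos and 3.01 ± 0.08 (SD, n = 3) in control MO embryos. The change was 0.61 on the log2 scale (SE 0.0969, 95% interval 0.38 to 0.85, limma adjusted p = 0.0118). The second hbae1.1 probe gave 9.98 and 8.71 on the gata5/6 MO arrays, against 6.05, 5.91 and 5.45 on the control MO arrays. It moved the same way, by 0.69 (SE 0.110, adjusted p = 0.0155 over all probes). Both probes are assigned to hbae1.1 by accession and are not replicates of the condition. The change stayed between 0.54 and 0.69 when any 1 array was left out, but the adjusted p was 0.0523, 0.0550 and 0.0680 without control MO replicates 1, 2 and 3. It did not pass under the default and maximum likelihood settings of normexp background correction (adjusted p = 0.503 and 0.512), the planned forms of that correction. With outlying spots left out of normexp, a form chosen after seeing the data, the change was 0.59 (adjusted p = 0.00504). With a variance for each group hbae1.1 did not pass.

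The alpha globin gene hbae3 stands at the end of the same locus, and its signal was lower on both gata5/6 MO arrays. Its probe gave 3.06 and 2.38 on the gata5/6 MO arrays, against 3.65, 3.72 and 3.17 on the control MO arrays. Both gata5/6 MO arrays were below all control MO arrays, the nearest pair being 3.06 and 3.17. The log2 change was -0.38 (SE 0.141, 95% interval -0.73 to -0.03), and it did not pass (limma adjusted p = 0.132). The value depended on which gata5/6 MO array was used, at -0.56 without gata5/6 MO replicate 1 (adjusted p = 0.0441) and -0.20 without replicate 2 (adjusted p = 0.228). The difference between the changes of hbae1.1 and hbae3 was not tested.

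The beta globin genes hbbe2 and hbbe3 are neighbours at the minor locus. The first hbbe2 probe gave 0.120 and 0.0840 on the gata5/6 MO arrays, against 0.0651, 0.0525 and 0.0474 on the control MO arrays. The groups did not overlap, and the log2 change was 0.88 (SE 0.201, 95% interval 0.39 to 1.38, limma adjusted p = 0.0376). The probe was dim: its processed intensities were 60.9 and 47.3 units on the gata5/6 MO arrays and 37.1, 30.1 and 26.6 units on the control MO arrays. The scanner software put its own error at 6.59 and 5.59 units on the gata5/6 MO arrays and at 4.72, 4.22 and 3.93 units on the control MO arrays. The second hbbe2 probe gave signals of 0.0559 and 0.0361 on the gata5/6 MO arrays, against 0.0349, 0.0293 and 0.0332 on the control MO arrays. It lay in the same direction (log2 change 0.47, SE 0.200) and did not pass over all probes (adjusted p = 0.188).

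The hbbe2 change was 0.62 without gata5/6 MO replicate 1 (adjusted p = 0.100). It also did not pass without control MO replicate 2 (0.86, adjusted p = 0.132), without control MO replicate 3 (0.78, adjusted p = 0.123), or as the mean of its probes (0.68, adjusted p = 0.0695). The planned forms of normexp turned it to -0.12 and -0.13 (adjusted p = 0.926 and 0.918), and a normexp correction with outlying spots left out, chosen after seeing the data, gave 0.37 (adjusted p = 0.0332).

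The hbbe3 probe gave 4.57 and 2.67 on the gata5/6 MO arrays, against 2.28, 2.47 and 2.00 on the control MO arrays. The first gata5/6 MO array stood well above the rest and the second only just above the controls. Of all kept probes, 5.00% had a larger gap between the gata5/6 MO arrays. The log2 change was 0.64 (SE 0.235, 95% interval 0.06 to 1.22), a 1.56-fold difference that did not pass (limma adjusted p = 0.127). It was 1.03 without gata5/6 MO replicate 2 (adjusted p = 0.00918) and 0.25 without gata5/6 MO replicate 1 (adjusted p = 0.247).

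The rest of the hemoglobin family was set beside these genes. The RefSeq gene table of assembly GRCz12tu holds 16 hemoglobin genes, 12 at the major and 4 at the minor locus, of which 9 had a probe and 8 could be tested. Of these 8 genes, 4 rose, 0 fell and 4 did not pass, while 7.84% of all genes tested rose and 7.17% fell. Among those that rose, si:ch211-5k11.8 passed the filter on dim signal only through the gata5/6 MO arrays. That gene was also named after its values were seen, and it is counted among the 4 here and among the 6 below. The others that rose were hbae1.1, hbbe2 and hbae4. Both gata5/6 MO arrays lay above all control MO arrays for 6 of the 8 genes and below them for hbae3, and the arrays overlapped for hbaa2. Among all genes tested, 29.0% had both gata5/6 MO arrays above and 21.8% had both below. For 7 of the 8 genes the first gata5/6 MO array was brighter than the second. The share of all genes tested for which this held was not computed, so the count has no background to be read against. Several globin genes are near-identical copies, so a probe may also bind the transcripts of its neighbours. Which copies each probe bound was not tested.

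The alpha gene hbae4, which neighbours hbbe3, rose 2.12-fold. Its signals were 0.107 and 0.114 on the gata5/6 MO arrays, against 0.0453, 0.0621 and 0.0503 on the control MO arrays (log2 change 1.09, SE 0.148, limma adjusted p = 0.00702). It kept its call when any 1 control MO array was left out. The change stayed between 0.98 and 1.21 when any 1 array was left out. The probe was dim, at 54.2 and 64.4 units on the gata5/6 MO arrays and 25.8, 35.7 and 28.2 units on the control MO arrays. With a variance for each group this probe did not pass over all probes (adjusted p = 0.150). With the planned forms of normexp the hbae4 change was 0.06 and 0.05 and did not pass (adjusted p = 0.965 and 0.971). With the form chosen after seeing the data it was 0.53 (adjusted p = 0.00773).

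The gene si:ch211-5k11.8 of the major locus, an alpha globin by its older symbol hbaa1.2, was named after its values were seen. Its brighter probe gave 0.0835 and 0.0754 on the gata5/6 MO arrays, against 0.0256, 0.0186 and 0.0257 on the control MO arrays, where it was not well above background. It was at least 3.28-fold higher in gata5/6 MO embryos (limma adjusted p = 0.00171). For this fold a control MO signal was raised to the lowest signal well above background on its array only where it lay below that signal. The fold from the signals as read was 3.44, so the bound rests mostly on the probe's own control MO readings. Either fold holds for the processed signal alone: the log2 change was 0.49 with the normexp correction chosen after seeing the data (adjusted p = 0.00475), and it turned to -0.065 and -0.078 with the planned forms (adjusted p = 0.968 and 0.963). The adult genes hbaa2 (log2 change 0.53, adjusted p = 0.193) and hbba2 (0.47, adjusted p = 0.170) did not pass. The highest hbaa2 signal, 0.340, was on gata5/6 MO array 1, while gata5/6 MO array 2 at 0.194 lay among the control MO arrays at 0.198, 0.170 and 0.167. The adult beta gene hbba1 had no probe past the filter. The list of other globins, which also holds the myoglobin and cytoglobin genes, had 5 measured genes, around a median log2 change of 0.47. Of these 5, 1 (hbae4) rose, 0 fell and 4 did not pass, while 7.84% of all genes tested rose and 7.17% fell.

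**Figure D2:**
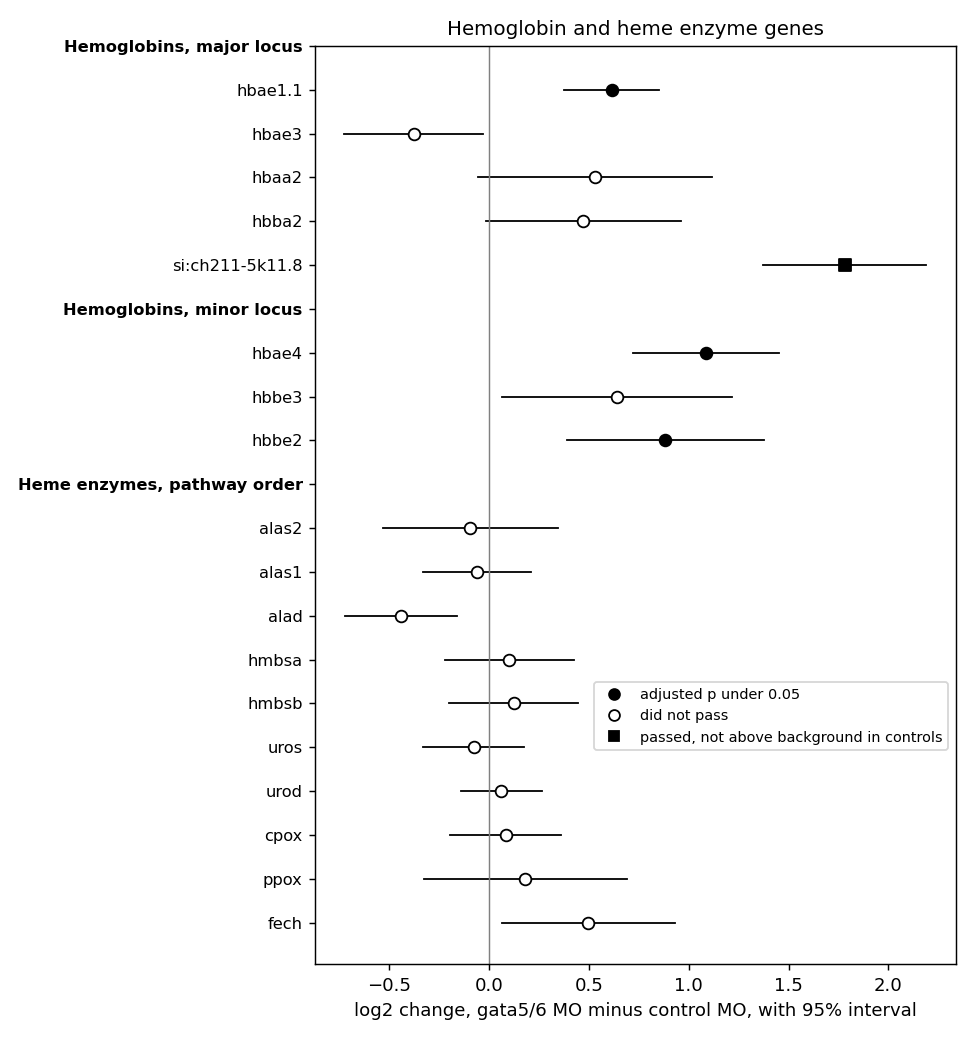
Log2 change (gata5/6 MO minus control MO) of each tested hemoglobin gene by locus and of each heme enzyme gene in pathway order, with its 95% interval from limma. Filled symbols passed at an adjusted p under 0.05, open symbols did not, and the square marks si:ch211-5k11.8, whose fitted change is no bound because control MO arrays were not above background. The minor locus genes hbae4, hbbe3 and hbbe2 lie at 1.09, 0.64 and 0.88, and the heme enzymes between -0.44 and 0.50.

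The first enzyme of erythroid heme synthesis, alas2, had 4 probes, which did not move together. The brightest gave 0.0925 and 0.129 on the gata5/6 MO arrays, against 0.133, 0.115 and 0.104 on the control MO arrays. The groups overlapped and the log2 change was -0.09 (SE 0.178, 95% interval -0.53 to 0.34, limma adjusted p = 0.748). The second probe gave 0.0441 and 0.0463 on the gata5/6 MO arrays, against 0.0304, 0.0343 and 0.0289 on the control MO arrays. It was higher by 0.54 (SE 0.112, adjusted p = 0.0334 over all probes). That call was lost without any 1 of control MO replicates 1, 2 and 3 and without gata5/6 MO replicate 1, where adjusted p was 0.0522 to 0.152, and with the normexp correction chosen after seeing the data the change was 0.10 (adjusted p = 0.425). A further kept probe lay lower on both gata5/6 MO arrays, at 0.0237 and 0.0225, against 0.0276, 0.0301 and 0.0238 on the control MO arrays, with a log2 change of -0.23 that did not pass (adjusted p = 0.296). The remaining alas2 probe was above background on 0 of the 2 gata5/6 MO arrays and 1 of the 3 control MO arrays.

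The enzymes Urod and Cpox carry out the decarboxylation and oxidation steps between uroporphyrinogen and protoporphyrinogen, and their genes gave nearly level signals. The urod probe read 2.20 and 2.15 on the gata5/6 MO arrays, against 2.05, 2.17 and 2.02 on the control MO arrays. Its log2 change was 0.06 (SE 0.0833, 95% interval -0.14 to 0.27, adjusted p = 0.648). The brighter cpox probe read 4.37 and 4.34 on the gata5/6 MO arrays, against 4.32, 4.43 and 3.64 on the control MO arrays. The groups overlapped for both genes, and the cpox change was 0.08 (SE 0.113, 95% interval -0.20 to 0.36, adjusted p = 0.653). The second cpox probe gave 0.05 (adjusted p = 0.814), and the third did not pass the filter. The intervals leave room for a change of either sign, up to 0.27 for urod and 0.36 for cpox on the log2 scale.

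Ferrochelatase, encoded by fech, completes heme. Its kept probe gave 0.114 and 0.0812 on the gata5/6 MO arrays, against 0.0604, 0.0681 and 0.0769 on the control MO arrays. The groups did not overlap, and the nearest values were 0.0812 and 0.0769. The log2 change was 0.50 (SE 0.177, 95% interval 0.06 to 0.93), a 1.41-fold difference that did not pass (limma adjusted p = 0.119). It was 0.74 without gata5/6 MO replicate 2 (adjusted p = 0.0231) and 0.25 without gata5/6 MO replicate 1 (adjusted p = 0.289). With the planned forms of normexp it turned to -0.24 and -0.25 (adjusted p = 0.850 and 0.841). With the form chosen after seeing the data it was 0.20 (adjusted p = 0.251 over all probes). A dimmer fech probe was above background on 1 of 2 gata5/6 MO arrays and 0 of 3 control MO arrays.

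Over the probes of the members, 4 of the 13 kept probes rose and 0 fell, whereas 6.09% of all kept probes rose and 5.63% fell. The probes that rose were both of hbae1.1, 1 of hbbe2 and 1 of alas2.

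The whole heme pathway has 8 steps and 10 enzyme genes here, and 0 of the 10 passed, against 15.0% of all genes tested. Without adjustment 2 of the 10, fech and alad, had a p under 0.05 (limma), beside 31.8% of all genes tested. With 10 genes, both counts are small numbers to set against these shares. The gene alad encodes the second enzyme, which joins pairs of aminolevulinic acid molecules, and its signals were 1.341 and 1.095 on the gata5/6 MO arrays, against 1.650, 1.582 and 1.714 on the control MO arrays. Both gata5/6 MO arrays were below all control MO arrays. Its log2 change was -0.44 (SE 0.114, 95% interval -0.72 to -0.16, adjusted p = 0.0533), just short of the threshold, and it passed in 6 of 16 other settings, among them the authors' value table (adjusted p = 0.0414). A second alad probe gave 0.669 and 0.525 on the gata5/6 MO arrays, against 0.849, 0.822 and 0.892 on the control MO arrays, and also stopped short over all probes (log2 change -0.53, adjusted p = 0.0569). The other genes gave -0.06 for alas1, 0.10 for hmbsa, 0.12 for hmbsb, -0.08 for uros and 0.18 for ppox.

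Beyond the enzymes, the largest change among the mitochondrial partners of heme synthesis was a fall in slc25a38a. This gene encodes a carrier of the inner mitochondrial membrane that brings in glycine for the first step and is needed for heme synthesis in zebrafish. Its signals were 0.0987 and 0.107 on the gata5/6 MO arrays, against 0.585, 0.620 and 0.713 on the control MO arrays, a log2 change of -2.63 (SE 0.115, limma adjusted p = 0.000135). Its other probe was at least 3.91-fold higher in control MO embryos, since neither gata5/6 MO array had it well above background. The paralog slc25a38b also fell, by 0.51 on the log2 scale (adjusted p = 0.0255), although its change was only -0.08 with the normexp correction chosen after seeing the data (adjusted p = 0.529), and adjusted p was 0.115, 0.0895 and 0.118 without control MO replicates 1, 2 and 3. Of the 19 measured genes in the list of other heme enzymes and partners, 0 rose, 2 fell and 17 did not pass. Their median log2 change was 0.02. Of all genes tested, 7.84% rose and 7.17% fell. The mitochondrial iron importer of erythroid cells, slc25a37, did not pass (-0.08, adjusted p = 0.765).

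Genes that store or move iron and break heme down went both ways. Of 14 measured, 1 rose, 3 fell and 10 did not pass, and the median log2 change was 0.04. Over all genes tested 7.84% rose and 7.17% fell. The gene blvrb, a reductase acting on biliverdin, fell (-1.04, adjusted p = 0.00288), as did the iron exporter gene slc40a1 (-0.51, adjusted p = 0.0135). The heme oxygenase gene hmox1a fell (-0.61, adjusted p = 0.0208), while its paralog hmox1b, named after its values were seen, rose (0.58, adjusted p = 0.0302). Without control MO replicates 1, 2 or 3 in turn, slc40a1 and hmox1a did not pass, with adjusted p of 0.0623 to 0.0951.

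Of the measured regulators of the erythroid lineage 10.5% passed, against 15.0% of all genes tested, a difference that was not tested. Of 19 measured genes, 1 rose, 1 fell and 17 did not pass, around a median of 0.05 on the log2 scale. The shares over all genes tested were 7.84% for rises and 7.17% for falls. The genes of the factors that define the lineage did not pass, with gata1a at 0.21 (adjusted p = 0.232), tal1 at 0.23 (adjusted p = 0.135) and klf17, chosen as a marker of primitive erythroid cells, at 0.05 (adjusted p = 0.706). The gene lmo2, whose product bridges Tal1 and Gata1, rose (0.62, adjusted p = 0.0304), zfpm1, which encodes a cofactor of GATA factors, fell (-0.95, adjusted p = 0.0368), and gfi1aa, a repressor gene of blood cells, stood at 0.35 (adjusted p = 0.0521). Both calls were lost without any 1 control MO array, where adjusted p was 0.0813 to 0.121 for lmo2 and 0.0955 to 0.129 for zfpm1, and the zfpm1 change was -0.25 (adjusted p = 0.105) with the normexp correction chosen after seeing the data. The transcripts that mark erythroid cells were present, with alas2, gata1a, tal1, klf17 and hbae1.1 above background, whereas the red cell anion exchanger gene slc4a1a had no kept probe.

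Of 13 measured genes of the red cell membrane and cytosol, 2 rose, 1 fell and 10 did not pass. Their median was -0.02 on the log2 scale. Among all genes tested 7.84% rose and 7.17% fell. The carbonic anhydrase gene ca2 rose (1.84, adjusted p = 0.000135), as did dmtn, which encodes a protein of the membrane skeleton (0.63, adjusted p = 0.00608). The nucleotidase gene nt5c3a fell (-0.85, adjusted p = 0.00322). A further carbonic anhydrase gene of this list, cahz, lay in the opposite direction to ca2 and did not pass (-0.34, 95% interval -0.59 to -0.09, adjusted p = 0.0841). Its groups did not overlap. Which cells the ca2 signal came from was not tested, so its rise cannot be assigned to red cells.

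Genes of other cell types, namely primitive myeloid cells, endothelium and angioblasts, were set beside these values. Of 9 measured primitive myeloid genes 0 rose, 4 fell and 5 did not pass, against 7.84% of all genes tested that rose and 7.17% that fell. The median of these 9 changes was -0.43. The factor genes spi1b (-2.11, adjusted p = 0.000189) and irf8 (-1.41, adjusted p = 0.000502) fell, as did rac2 (-0.60, adjusted p = 0.0101), whose adjusted p was 0.0527 to 0.0628 without 1 control MO array. The granulocyte and macrophage genes mpx, lyz and csf1ra had no kept probe. The summed signal of the myeloid list was 11.6 to 12.7 on the gata5/6 MO arrays and 14.3 to 15.8 on the control MO arrays, a sum that the bright probes of cebpa and lcp1, which did not pass, carry for the most part.

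Of 10 measured genes of endothelium and angioblasts 3 rose, 1 fell and 6 did not pass, beside 7.84% rises and 7.17% falls over all genes tested. The median of these 10 changes was 0.13. The VEGF receptor gene kdr fell (-2.30, adjusted p = 9.44e-05). The factor gene etsrp rose (0.52, adjusted p = 0.0124), and its adjusted p was 0.0632 to 0.0823 without 1 control MO array. The gene cdh5, for the cadherin of endothelial junctions, was at least 1.73-fold higher in gata5/6 MO embryos (adjusted p = 0.00456), a fold that holds for the processed signal alone. It was not well above background on any control MO array, so the filter kept it only through the gata5/6 MO arrays. It is counted among the 3 that rose, and because of that filter its adjusted p is no support for a rise. The cdh5 log2 change was 0.27 with the normexp correction chosen after seeing the data (adjusted p = 0.0586). With the planned forms it turned to -0.30 and -0.32. The summed signal of the endothelial list was 9.99 to 10.2 on the gata5/6 MO arrays and 8.23 to 8.66 on the control MO arrays. Such a sum follows its brightest probes and not the list as a whole, and the part of these cell types in the globin values was not tested.

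**Figure D3:**
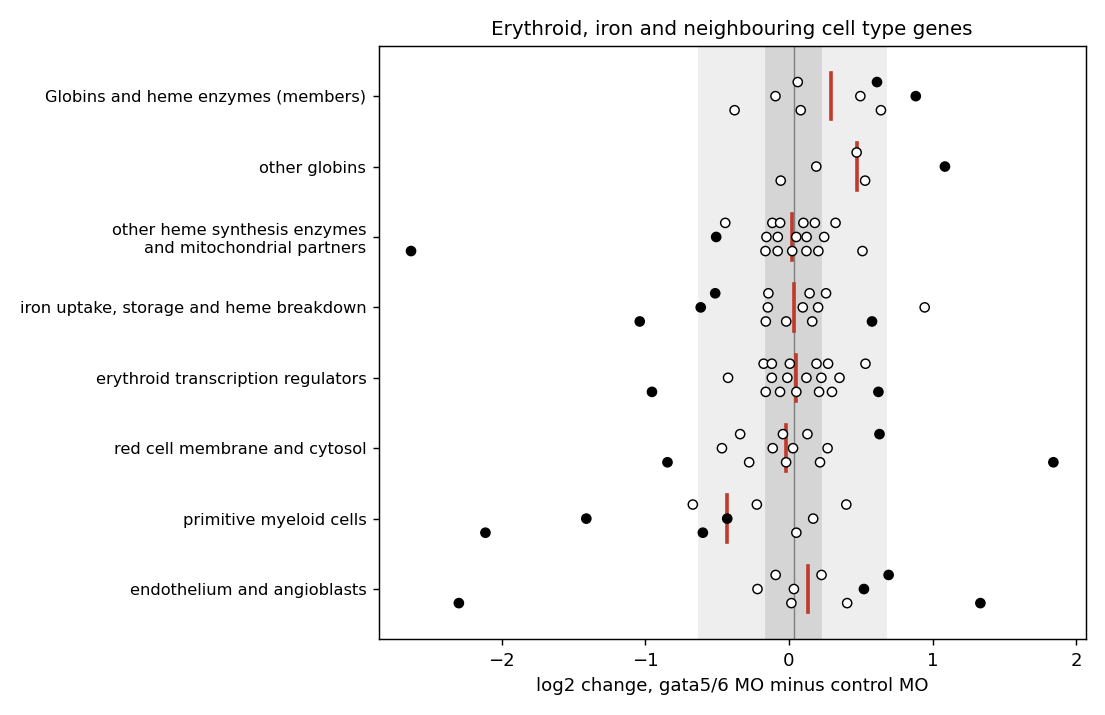
Log2 change (gata5/6 MO minus control MO) of each measured gene of the members and of 7 lists of related genes and other cell types. Filled points mark genes at an adjusted p under 0.05, and a red bar marks the median of each list. The dark and light grey bands hold the middle of all genes tested, from -0.16 to 0.22 between the 25th and 75th percentiles and from -0.63 to 0.67 between the 5th and 95th. The median of the members is 0.29, and the myeloid list lies lowest at -0.43.

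**Figure D4:**
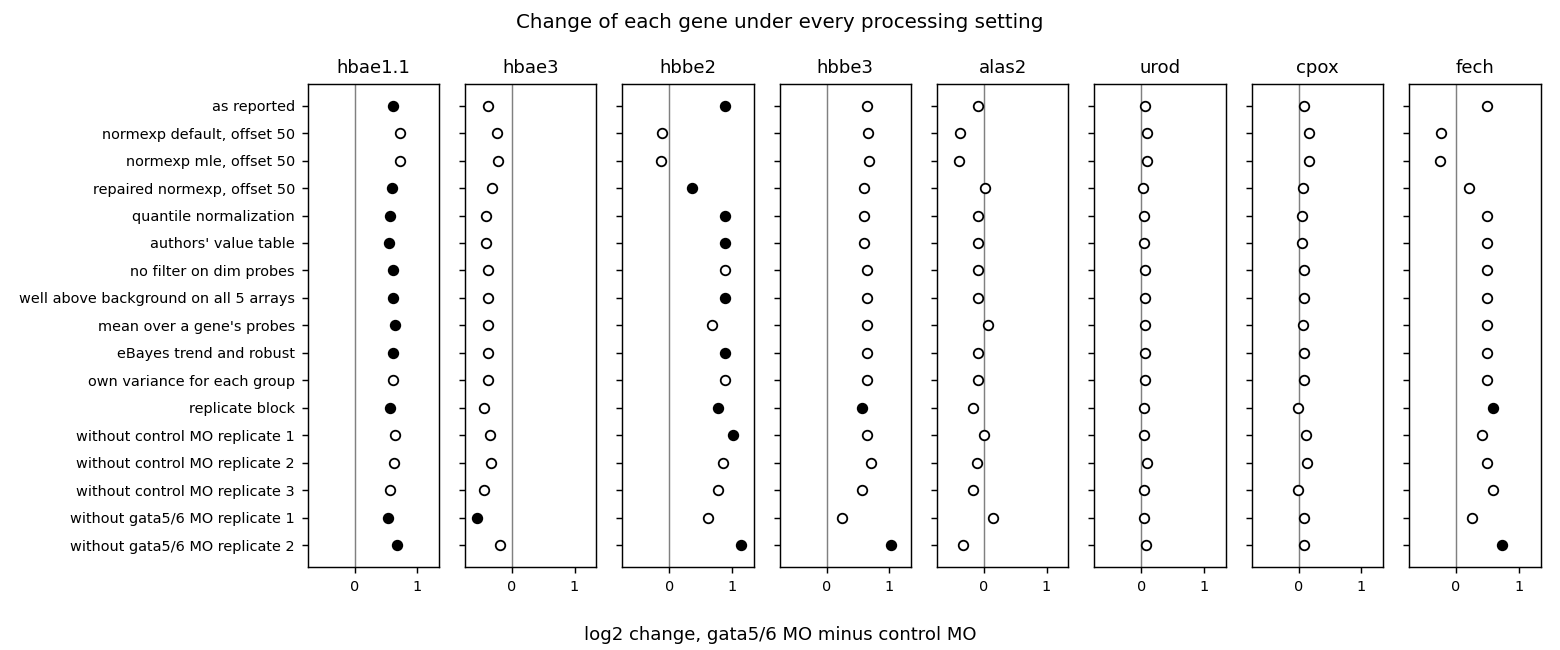
Log2 change (gata5/6 MO minus control MO) of each measured member as reported and under 16 other settings of background correction, scaling, filtering, variance and left-out arrays, with filled points at an adjusted p under 0.05. The hbae1.1 values stay between 0.54 and 0.72, and the hbbe2 values span -0.13 to 1.14. The genes alas2, urod and cpox passed in none of these 16 settings.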

How the data were processed

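Per the labels' protocols, total RNA was amplified, and the labelled product carried the dye Cy3 alone. The deposited array files hold, per the file headers, a processed signal for each spot, an intensity that Agilent Feature Extraction 10.7.3.1 background-subtracted and detrended within the array and did not scale between arrays. In the submitters' processing notes the version is 10.7.1.1. The authors' deposited value table holds log2 values with a median of 6.09 in every column. Its scale was found by comparison with the processed signals (r of at least 0.9998 across probes), no centring on 0 was seen, and with 1 dye there is no ratio whose direction could be unknown. The sources used here do not say how it was made, but its columns differed by at most 0.000844 at equal rank, as quantile normalized values do. As a setting it therefore nearly repeats the quantile normalization tried below.

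Here each processed signal was divided by the 75th percentile of its array and taken to log2 (506 to 574 intensity units). Control spots and 52 probes with an outlier spot were left out. Of 43603 probes, 30616 were kept because all arrays of 1 or both groups had them well above background. Names came from RefSeq accessions matched, without versions, to the gene table of assembly GRCz12tu (25598 probes, 58.7%), so no coordinates are given. The brightest kept probe stood for its gene. Group means were tested two-sided by limma (version 3.58.1, R 4.3.3) through lmFit and eBayes with 3 residual degrees of freedom and without covariates, with Benjamini-Hochberg adjustment over all genes or over all probes, and the fit was tested on simulated data. Rose, fell, higher and lower refer to gata5/6 MO relative to control MO, and rose and fell to genes that passed. Levels are compared within a probe, and sums over a marker list are given as a description.

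The members, the lists and the tests were chosen with earlier results of these data known. The rule named all members, gata4, gata5 and gata6, from each list the 3 genes of lowest adjusted p, and gata1a and tal1. Any other gene was picked with its values in view. Alternatives tried were normexp background correction in 3 forms, quantile normalization, the authors' value table, other filters on dim probes, the mean over a gene's probes, eBayes with trend and robust settings, a variance for each group, the replicate number as a block and each array left out.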

Additional observations from a re-analysis of the deposited data

How the results depend on the processing

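All changes rest on 2 gata5/6 MO arrays, and dim probes (among them those of hbbe2, alas2, fech and hbae4) have little signal over background. Of the 16 alternatives, hbae1.1 passed in 10, hbbe2 in 8, hbbe3 and fech in 2 and hbae3 in 1. As reported, 846 genes rose and 774 fell, 2 members rose and 0 fell, 4 member probes rose and 0 fell, and 8 genes of the other lists rose and 12 fell. With normexp as planned (default and maximum likelihood estimates, offset 50) 19 genes rose and 24 fell, 0 members and 0 member probes rose, and 1 gene of the other lists rose and 2 fell. There hbbe2 turned to -0.12 (default) and -0.13 (maximum likelihood), si:ch211-5k11.8 to -0.065 and -0.078, and cdh5 to -0.30 and -0.32, and among genes that had not passed fech turned to -0.24 and -0.25 and hbba2 to -0.33 and -0.35. On control MO replicate 3 the lowest difference of a spot from its local background was -11992.5 units and the fitted background mean was -230.2, against 2.813 to 9.198 on the other arrays. Fitted without 4 such spots, an alternative chosen after seeing the data, it was 6.136. There hbae1.1 passed at 0.59 (adjusted p = 0.00504), and hbbe2 passed at 0.37 (adjusted p = 0.0332). A variance for each group left 290 genes risen and 257 fallen, 0 members and 0 member probes, and 1 risen and 6 fallen in the other lists. Without the filter on dim probes 1 member and 2 member probes rose, and with the mean over probes 1 member rose. The trend and robust settings gave 13 risen genes in the other lists. Leaving out 1 array gave 369 to 3147 risen and 316 to 2115 fallen genes, 0 to 4 risen and 0 to 1 fallen members, 0 to 8 risen member probes, and 4 to 30 risen and 6 to 23 fallen genes of the other lists. The extremes came without gata5/6 MO replicate 2, where 3147 genes rose and 2115 fell, except that the fallen member was hbae3 without gata5/6 MO replicate 1 and that the lowest counts came without a control MO array. Where a gata5/6 MO array was left out, the lone array was assumed to vary like the control MO arrays. With the replicate number as a block 4 members rose, hbbe3 (0.56, adjusted p = 0.0194) and fech (0.58, adjusted p = 0.0117) being added. That fit gives control MO replicate 3 a term of its own and has fewer residual degrees of freedom. Its changes therefore equal those without that array. With control MO replicate 3 left out and no block, the hbbe3 and fech probes did not pass over all probes (limma adjusted p = 0.352 and 0.214). In the block fit their adjusted p over all probes was 0.0599 and 0.0391. Deviations of same-numbered arrays had an r of 0.134 and 0.207 across probes. The 2 gata5/6 MO arrays deviate from their mean as mirror images. Pairs of replicates 1 and 2 with unlike numbers therefore gave -0.134 and -0.207, so the positive values are not separate support for a pairing. The labels give no shared source behind the replicate numbers, and with 2 shared numbers the data do not settle whether they pair the arrays.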
